A study of Mus musculus with 8 samples.

Results

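The non-classical MHC class I and CD1 genes are 7 listed genes, H2-M2, H2-M3, H2-T10, H2-T23, H2-T24, Cd1d1 and Mr1, followed here in dendritic cells of the mouse spleen. They were taken from the array's rows annotated to exactly 1 of these symbols, with the row of the highest mean where a gene had several. That rule found 6 of the 7 genes, each with 1 row, among 19938 genes measured as 1 symbol. H2-T23 sits on a row that carries a further symbol and was not analysed here.

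The study sorted XCR1+ dendritic cells, the splenic subset that also carries CD8α and is known for cross-presenting antigen, from untreated Il12b-EYFP reporter mice, whose cells fluoresce when the Il12b locus is active. All cells were lineage-negative, Bst2-negative or low, CD11c high and CD8α+. The immature fraction was CCR7- and reporter-negative (n = 3 arrays), the CCR7+Il12b- fraction had CCR7 but no reporter signal (n = 3), and the CCR7+Il12b+ fraction had both (n = 2). The labels call both CCR7+ fractions homeostatically matured and give neither the animals' age nor whether a sample pooled several mice.

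Class I-type molecules pair a heavy chain with beta-2-microglobulin and display a ligand on the cell surface. Classical members show peptides to CD8 T cells, whereas non-classical members vary little between individuals and serve T cells with restricted receptors or NK cells. H2-M3 binds peptides that begin with N-formylmethionine, as bacterial and mitochondrial proteins do. H2-T23 encodes Qa-1, which shows leader peptides of other class I chains to NK receptors. H2-T10 belongs to a group of T-region genes known as ligands of some gamma-delta T cell receptors. H2-M2 and H2-T24 are class I-type genes of the M and T regions. Cd1d1 encodes CD1d, which presents lipids to natural killer T cells, and Mr1 encodes the molecule that presents vitamin B metabolites to mucosal-associated invariant T cells.

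Promoter sequences from RefSeq (GRCm38.p6) were found for 4 of the 7 genes, H2-M2, H2-M3, H2-T23 and Mr1. Each window covers 250 bases before and 50 bases after the annotated start. The windows of H2-M2 and H2-M3, both on chromosome 17, are shown, as genes of the M region that behaved unlike each other. H2-M2 rose with maturation, whereas H2-M3 had similar levels in all fractions, as described below. This pair was chosen before a shared stretch was sought, and no other pair of windows was compared. H2-M2 lies at chr17:37483505-37483804 on the minus strand and H2-M3 at chr17:37269984-37270283 on the plus strand. Capitals mark matches to the NF-kB motif, to CCAAT and to ACTGATGACNNTNCTCCAATTC, searched on both strands. The last of these, which contains CCAAT, is the longest stretch of letters that both windows hold with at most 3 differing bases, written as N.
H2-M2: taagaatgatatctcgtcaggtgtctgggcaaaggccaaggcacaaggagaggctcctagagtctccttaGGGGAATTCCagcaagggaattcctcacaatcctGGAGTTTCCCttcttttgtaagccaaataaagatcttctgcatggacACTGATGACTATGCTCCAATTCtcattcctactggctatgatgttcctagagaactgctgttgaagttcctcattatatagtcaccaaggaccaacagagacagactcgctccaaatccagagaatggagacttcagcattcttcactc
H2-M3: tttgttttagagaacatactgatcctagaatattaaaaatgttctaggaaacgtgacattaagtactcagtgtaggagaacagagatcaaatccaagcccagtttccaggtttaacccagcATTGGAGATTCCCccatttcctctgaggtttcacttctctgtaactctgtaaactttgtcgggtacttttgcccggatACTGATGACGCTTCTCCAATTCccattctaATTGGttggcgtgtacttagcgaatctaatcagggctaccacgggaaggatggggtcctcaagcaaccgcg

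The NF-kB motif matched the H2-M2 window at GGGGAATTCC, 180 to 171 bases before the start, on the forward strand. It also matched there at GGAGTTTCCC, 146 to 137 bases before the start, on the reverse strand. In the H2-M3 window it matched once, at GGAGATTCCC, 126 to 117 bases before the start, on the reverse strand, where it overlaps a CCAAT match on the same strand. Of 32851 promoter windows of the same length, 8.46% held an NF-kB match and 37.4% a CCAAT match. Among 25 windows of class I genes of the H2 complex, 9 held an NF-kB match and 22 a CCAAT match. The shared stretch lay 99 to 78 bases before the start in H2-M2 and 51 to 30 bases before it in H2-M3, and 2 windows of the whole table (0.00609%) held it, these. Since its letters were taken from these windows, that rarity is no test. The interferon-stimulated response element GAAANNGAAA, held by 3.44% of windows, was matched in H2-T23 and in none of H2-M2, H2-M3 and Mr1. These matches describe letters in a window, not binding.

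On the array side, RNA of all 8 samples gave log2 expression values made by RMA. The medians of the arrays were 5.25 to 5.33 in immature and 5.36 to 5.46 in CCR7+ arrays. Olfactory and vomeronasal receptor genes, 1194 in number, served as a gauge of background, with their 95th percentile of 4.98 as the mark. The median change of these receptor genes was 0.10 in both comparisons with immature cells. Of the 6 measured members 5 had a group mean above the mark, all but Mr1. All 11 markers of XCR1+ dendritic cells had group means above the mark in every fraction. Against immature cells, however, 5 fell and 1 rose in CCR7+Il12b- cells, where 14.5% of all genes fell and 9.10% rose. In CCR7+Il12b+ cells 8 fell and 1 rose, where 17.9% of all genes fell and 14.1% rose. Xcr1 itself fell by 1.36 and 3.02, Tlr3 fell by 2.23 and 4.82, and Itgae differed by -1.76 and -3.53, with means of 6.78 and 5.01. The marker that rose was Batf3, by 0.54 and 0.89. Flt3 differed by 0.17 and 0.28 and Zbtb46 by 0.23 and 0.40, none of them called. The summed level of the 11 markers is the log2 of the sum of linear values. It was 13.88 to 13.98 in immature, 13.44 to 13.68 in CCR7+Il12b- and 12.93 to 13.16 in CCR7+Il12b+ arrays. CCR7+Il12b- replicate 3 stood apart on the first principal component, at 30.1 against 8.2 and 13.4 for the other replicates of its fraction, toward the CCR7+Il12b+ arrays at 52.2 and 53.6. Calls that ended without it are named beside the result. Ccr7 and Il12b, which define the sort, had group means of 8.64 and 7.03 in immature, 12.22 and 10.81 in CCR7+Il12b-, and 12.61 and 12.28 in CCR7+Il12b+ cells.

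Maturation was accompanied by a very large rise of H2-M2, a rise of Cd1d1 of 1.08 and 1.05 on the log2 scale, and small or uncalled differences in the other members. Calls rest on limma's moderated test, with the Benjamini-Hochberg adjusted p over all genes below 0.05. In CCR7+Il12b- against immature cells 3 of 6 members were called, 2 higher and 1 lower, where 23.6% of all genes were called (9.10% higher and 14.5% lower). In CCR7+Il12b+ against immature cells 3 of 6 were called, again 2 higher and 1 lower, where the share of all genes was 32.0% (14.1% higher and 17.9% lower). Between the CCR7+ fractions 2 of 6 were called, both higher in CCR7+Il12b+ cells, against 7.08% of all genes (2.61% higher and 4.47% lower). With each array centred on its median the higher share of all called genes fell from 38.5% to 27.7%, from 44.1% to 30.1% and from 36.9% to 29.5% in these comparisons. The median change of the 6 members was -0.18, 0.12 and 0.20 on the log2 scale, and that of all genes 0.06, 0.09 and 0.02. Both comparisons with immature cells use the same immature arrays. In sorted bulk samples, a change in the share of expressing cells and a change of RNA per cell cannot be told apart.

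**Figure D1:**
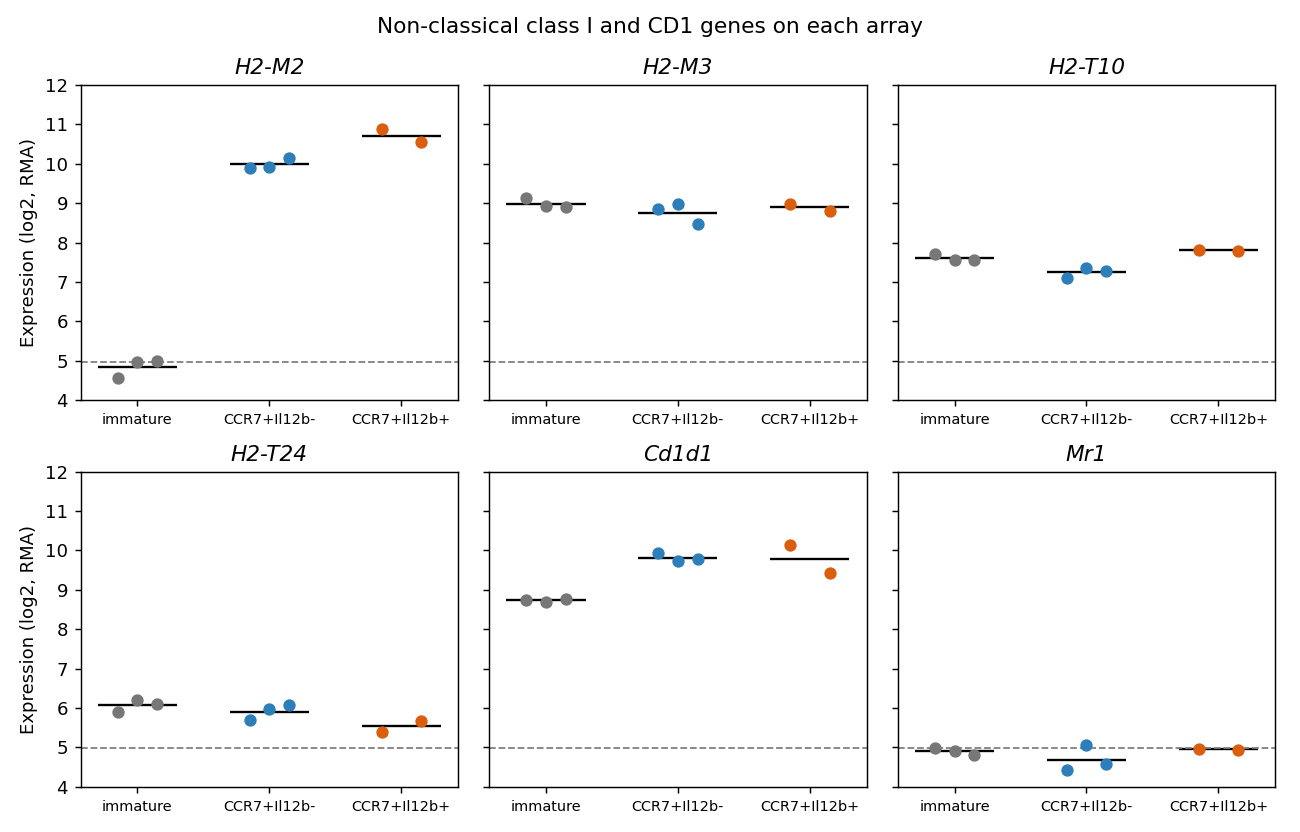
Expression of the 6 measured genes (log2, RMA) on each of the 8 arrays, as points grouped by sorted fraction; horizontal bars are group means and the dashed line is the background mark of 4.98. H2-M2 moves from the mark to 9.88 and above in both CCR7+ fractions, Cd1d1 is higher in every CCR7+ array than in any immature array, and Mr1 stays near the mark.

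H2-M2 was the member that differed most. Immature replicates 1 to 3 had log2 values of 4.55, 4.96 and 5.0, at or near the background mark. CCR7+Il12b- replicates 1 to 3 had 9.88, 9.92 and 10.15, and CCR7+Il12b+ replicates 1 and 2 had 10.87 and 10.54. No array of 1 fraction overlapped another fraction, and the order was immature, CCR7+Il12b-, CCR7+Il12b+. Because the immature mean of 4.84 lay below the mark, the rises are lower bounds, for which immature arrays below the mark were set to it. H2-M2 rose at least 32-fold in CCR7+Il12b- cells (limma adjusted p = 8.3e-09) and at least 52.9-fold in CCR7+Il12b+ cells (adjusted p = 7.16e-09). With the mark at the 99th percentile of the same receptor genes, 5.92, the bounds became 16.7-fold and 27.6-fold. The differences of the group means as measured, 5.15 and 5.87 on the log2 scale, are taken against an immature level below the mark and give no fold. Without CCR7+Il12b- replicate 3 the former was 5.07.

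The step between the CCR7+ fractions was much smaller for H2-M2. Its level was higher in CCR7+Il12b+ than in CCR7+Il12b- cells by 0.72 ± 0.17 on the log2 scale, or 1.65-fold, with an adjusted p of 0.0244. That call ended with median centring (adjusted p = 0.0552) and without CCR7+Il12b- replicate 1 (0.0752) or 2 (0.0843) or CCR7+Il12b+ replicate 1 (0.173), and over all left-out replicates the difference was 0.56 to 0.89. The 3 genes most like H2-M2 over the 8 arrays, by Pearson correlation among 12929 other genes above the mark, were Tmem123 (0.9996), Anxa3, an annexin (0.9994), and Gbp5, an interferon-inducible GTPase (0.9993). These arrays fall into 3 groups, so such values mainly describe a shared order of group means. Anxa3 differed by 5.76 and 6.72 from immature cells in CCR7+Il12b- and CCR7+Il12b+ cells, Gbp5 by 3.52 and 3.91, and Tmem123 by 2.87 and 3.34.

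**Figure D2:**
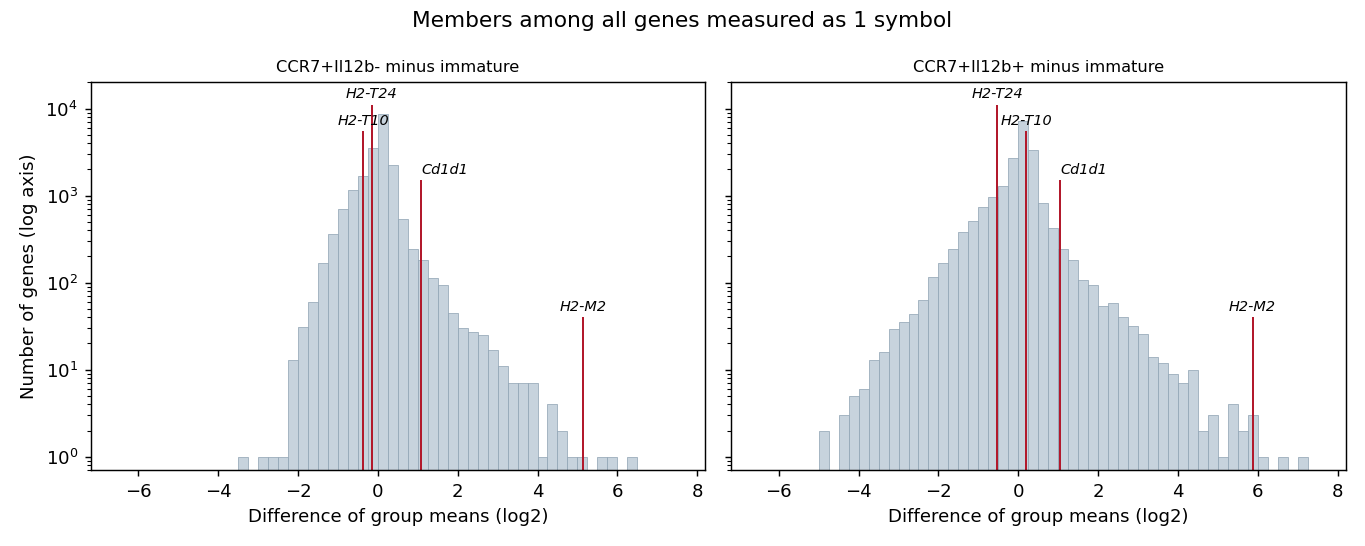
Number of genes (log axis) by the difference of group means (log2) for all 19938 genes, for CCR7+Il12b- (left) and CCR7+Il12b+ (right) against immature cells; red lines mark the 4 members called in either comparison. H2-M2, drawn at its measured 5.15 and 5.87 although its immature mean is below the background mark, lies at the far right of both distributions, and Cd1d1 at 1.08 and 1.05 on the right shoulder.

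Cd1d1, the gene of CD1d, rose in both matured fractions to about the same mean. Immature arrays had 8.74, 8.69 and 8.77 on the log2 scale, CCR7+Il12b- arrays 9.93, 9.74 and 9.78, and CCR7+Il12b+ arrays 10.13 and 9.44. Every CCR7+ array lay above every immature array, while the CCR7+Il12b+ arrays lay on either side of the CCR7+Il12b- arrays. The difference from immature cells was 1.08 ± 0.16 (SE), or 2.12-fold, in CCR7+Il12b- cells (limma adjusted p = 0.000523) and 1.05 ± 0.18, or 2.07-fold, in CCR7+Il12b+ cells (adjusted p = 0.000729). Both calls held under every alternative run, with differences of 1.03 to 1.12 and 0.70 to 1.39 when single replicates were left out. Between the CCR7+ fractions the difference was -0.04 ± 0.18 with a 95% interval of -0.42 to 0.35 (limma adjusted p = 0.954). Differences within that interval were not excluded in either direction.

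Genes most like Cd1d1 over the 8 arrays were Klf8, a Krüppel-like transcription factor (r = 0.996), Syngr2, a synaptogyrin (0.991), and Usp40, a deubiquitinase (0.990), with differences from immature cells of 0.55 to 0.73. Marginal zone B cells are known for high CD1d, and B cell markers were therefore read beside this gene. Among all genes 9.10% rose and 14.5% fell in CCR7+Il12b- cells, and 14.1% rose and 17.9% fell in CCR7+Il12b+ cells. Of 9 measured B cell markers 3 rose and none fell in CCR7+Il12b- cells, and 1 rose and 2 fell in CCR7+Il12b+ cells. Their summed level was 8.69 to 8.92 in immature, 9.38 to 9.79 in CCR7+Il12b- and 8.96 to 8.99 in CCR7+Il12b+ arrays. Ms4a1, the gene of CD20, stood at means of 6.99, 8.50 and 7.90 in immature, CCR7+Il12b- and CCR7+Il12b+ cells, rises of 1.51 and 0.91. Cd79b, a B cell receptor subunit, rose by 0.57 in CCR7+Il12b- and fell by 0.58 in CCR7+Il12b+ cells. Cr2, Fcer2a, Cd79a and Ebf1 were below the background mark in all 3 fractions, and Cr2 encodes the complement receptor that marks marginal zone B cells. CD11b+ dendritic cell markers had a summed level of 9.31 to 9.91 in immature, 11.31 to 11.45 in CCR7+Il12b- and 11.49 to 11.54 in CCR7+Il12b+ arrays, with Clec4a4 and Mgl2 of 8 below the mark throughout. Of these 8, 4 rose and 1 fell in CCR7+Il12b- and 3 rose and 1 fell in CCR7+Il12b+ cells. Tmem176a rose by 2.84 and 3.20, Tmem176b by 2.25 and 2.45 and Esam by 1.04 and 1.41, while Cd209a fell by 1.02 and 2.03. Sirpa rose by 1.08 in CCR7+Il12b- cells and differed by an uncalled 0.17 in CCR7+Il12b+ cells. Itgam, the gene of CD11b itself, stayed near the mark in immature, CCR7+Il12b- and CCR7+Il12b+ cells, with means of 5.09, 5.16 and 4.91. Its differences from immature cells, 0.07 and -0.18, were not called. Summed monocyte and macrophage markers were 11.73 to 11.75, 11.52 to 11.88 and 11.37 to 11.54 in the same order. Among 11 measured, 3 rose and 2 fell in CCR7+Il12b- and 3 rose and 3 fell in CCR7+Il12b+ cells. Spic rose by 3.15 and 3.07 and Vcam1 by 2.57 and 3.17, while Lyz2 fell by 1.45 and 3.11 and Cd68 fell by 1.38 and 2.67. C1qc, Fcgr1 and Mertk were below the mark in all fractions. The part of such cells in the rise of Cd1d1 was not tested.

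H2-T10, a T-region gene that RefSeq lists as a transcribed pseudogene, was lowest in the reporter-negative fraction. Its log2 values were 7.72, 7.55 and 7.55 in immature, 7.11, 7.35 and 7.27 in CCR7+Il12b-, and 7.82 and 7.78 in CCR7+Il12b+ arrays, with no overlap between any 2 fractions. CCR7+Il12b+ cells were above CCR7+Il12b- cells by 0.56 ± 0.12 (SE), or 1.48-fold (limma adjusted p = 0.0173). CCR7+Il12b- cells differed from immature cells by -0.37 ± 0.11 (adjusted p = 0.0301), and CCR7+Il12b+ cells by 0.20 ± 0.12 (adjusted p = 0.24, 95% interval -0.07 to 0.46), so the latter neighbours in the order were not separated by the test.

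Both calls on H2-T10 were fragile. The difference of CCR7+Il12b- from immature cells was no longer called after quantile (adjusted p = 0.127) or loess normalization (0.12), with an intensity trend (0.0627) or a replicate block (0.0627), or when an immature replicate or replicate 1 or 3 of the CCR7+Il12b- fraction was left out (0.0579 to 0.0992). The difference between the CCR7+ fractions was not called in a fit on those fractions alone (0.0507), with a replicate block (0.0572), or without CCR7+Il12b- replicate 1 (0.0589), CCR7+Il12b+ replicate 1 (0.0888) or CCR7+Il12b+ replicate 2 (0.059). A further row of the array carries H2-T10 together with the related H2-T9 and H2-T22, so the probes of these genes may read each other's transcripts. The genes closest to H2-T10 over the arrays were Shkbp1 (r = 0.965), Pml, a nuclear body protein (0.962), and Rdx, the gene of radixin (0.946).

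H2-T24 was lower in the reporter-positive fraction. Immature arrays had 5.89, 6.20 and 6.11 on the log2 scale, CCR7+Il12b- arrays 5.69, 5.97 and 6.07, and CCR7+Il12b+ arrays 5.39 and 5.68. The CCR7+Il12b+ arrays lay below all others, and the other fractions overlapped. The difference of CCR7+Il12b+ from immature cells was -0.53 ± 0.15 (SE; limma adjusted p = 0.0212), a call lost on leaving out immature replicate 2 (0.0811), immature replicate 3 (0.0637) or CCR7+Il12b+ replicate 1 (0.138). CCR7+Il12b- cells differed from immature cells by -0.15 ± 0.14 (adjusted p = 0.48) and the CCR7+ fractions from each other by -0.38 ± 0.15 (adjusted p = 0.209), so the intermediate mean of 5.91 was not separated from either neighbour. Its closest genes were the keratin gene Krt80 (r = 0.961), Cobll1 (0.960) and Satb1, a chromatin organiser (0.955).

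H2-M3 had similar levels in all fractions. Its log2 values were 9.12, 8.93 and 8.90 in immature, 8.84, 8.97 and 8.46 in CCR7+Il12b-, and 8.98 and 8.81 in CCR7+Il12b+ arrays, and all fractions overlapped. The lowest value belonged to CCR7+Il12b- replicate 3. Differences from immature cells were -0.23 (95% interval -0.54 to 0.08, limma adjusted p = 0.286) in CCR7+Il12b- and -0.09 (-0.43 to 0.26, adjusted p = 0.708) in CCR7+Il12b+ cells, and without that replicate the former was -0.08. The CCR7+ fractions differed by 0.14 (-0.20 to 0.49, adjusted p = 0.747). The rises of H2-M2 in the same comparisons lay outside these intervals. Whether the stretch shared by both promoters has a part in the expression of either gene was not tested. Stau1 (r = 0.932), Mcat (0.921) and Ap3d1, an adaptor subunit of lysosomal sorting (0.903), were closest to H2-M3.

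Mr1 did not exceed the background mark in the mean of any fraction. Immature arrays had 4.99, 4.91 and 4.80 on the log2 scale, CCR7+Il12b- arrays 4.43, 5.05 and 4.59, and CCR7+Il12b+ arrays 4.97 and 4.93. Values overlapped in every comparison and no fold is given. Differences were -0.21 and 0.05 from immature cells (limma adjusted p = 0.361 and 0.842) and 0.26 between the CCR7+ fractions (adjusted p = 0.486). Without CCR7+Il12b- replicate 2, the highest of its fraction, the first of these was -0.39 with an adjusted p of 0.0484. Tex264 (r = 0.924), Sh3pxd2a (0.888) and Plvap (0.879) were closest to Mr1, a likeness to values near background.

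**Figure D3:**
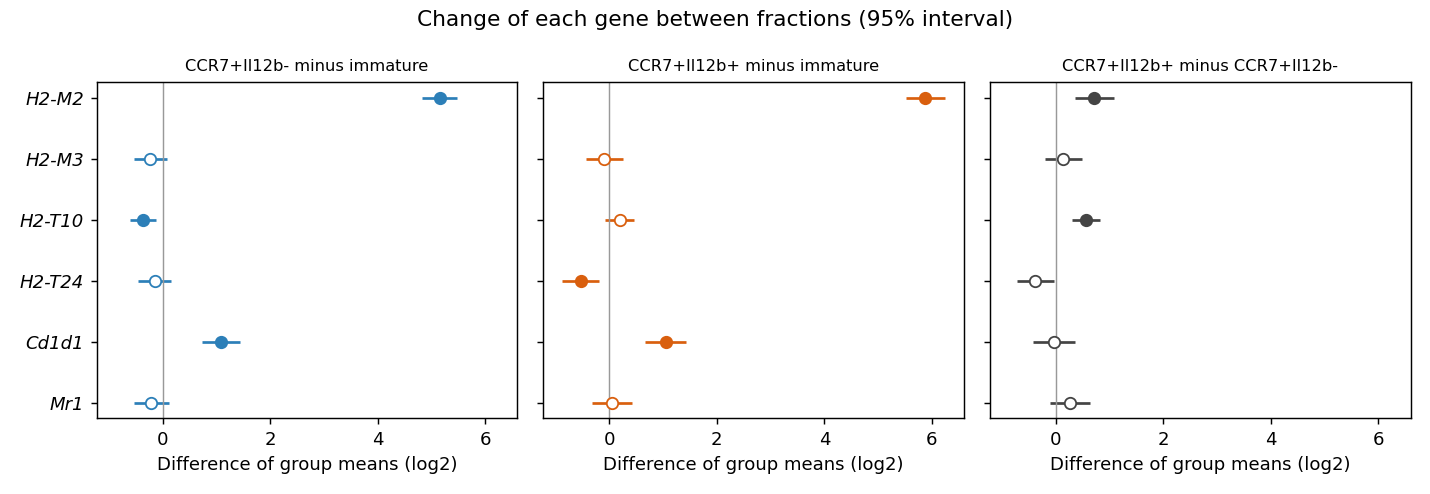
Difference of group means (log2) for the 6 genes in the 3 pairwise comparisons, with 95% intervals of the limma fit; filled points were called at an adjusted p under 0.05. H2-M2 and Cd1d1 rose in both matured fractions, and H2-T10 and H2-T24 show differences under 0.6 in size.

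Arrays of the compared groups did not overlap for 3 of 6 members in CCR7+Il12b- against immature cells, for 4 in CCR7+Il12b+ against immature cells and for 3 between the CCR7+ fractions. Among all genes those shares were 41.3%, 57.1% and 29.6%. Among the members themselves H2-M2 and Cd1d1 had the highest Pearson correlation over the 8 arrays (0.94), both being higher in the CCR7+ fractions. H2-T24 ran opposite to both (-0.62 and -0.66).

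The partner chain and the peptide-loading genes of classical class I were looked at next, as a list of 20 genes of which 18 were measured, H2-K1 and H2-D1 not among them. In CCR7+Il12b- against immature cells 7 rose and 2 fell, where 9.10% of all genes rose and 14.5% fell. The median change was 0.06, equal to that of all genes. In CCR7+Il12b+ cells 8 rose and 4 fell, where 14.1% of all genes rose and 17.9% fell. The median there was 0.28 beside 0.09 for all genes. Nlrc5, the transactivator that acts on class I promoters, rose by 2.53 ± 0.15 (SE; limma adjusted p = 9.03e-07) and 3.02 ± 0.17 (2.97e-07) in these comparisons, and its 19 rows gave 1.54 to 2.84 and 2.05 to 3.30. Its log2 values were 8.92, 9.11 and 8.95 in immature, 11.44, 11.26 and 11.85 in CCR7+Il12b-, and 12.14 and 11.88 in CCR7+Il12b+ arrays. Every CCR7+ array was above every immature one.

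Tapbpl, the peptide editor related to tapasin, rose by 0.91 ± 0.11 and 1.40 ± 0.13 (SE). Pdia3, a disulphide isomerase of the loading complex, fell by 0.67 and 1.20, and Rfxap, a subunit of the RFX factor that binds the X box, fell by 0.92 and 1.02. B2m, the gene of the partner chain of class I-type molecules, was chosen after its values were seen. It went from 12.31, 12.25 and 12.22 in immature to 12.62, 12.61 and 12.51 in CCR7+Il12b- and 12.72 and 12.73 in CCR7+Il12b+ arrays. That rise was 0.32 ± 0.10 (limma adjusted p = 0.0328) and 0.47 ± 0.11 (0.00574), and the former was not called after median centring (0.13), with a replicate block (0.0614), or when an immature replicate or replicate 1 or 2 of the CCR7+Il12b- fraction was left out (0.0509 to 0.122). Tapbpl alone passed between the CCR7+ fractions among the 18 genes (0.50 ± 0.13, limma adjusted p = 0.04), where 7.08% of all genes were called. That call ended when any immature or CCR7+Il12b- replicate was left out (0.0517 to 0.121). Without CCR7+Il12b+ replicate 1 the difference was 0.32.

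Other class I-like genes were a list of 39, of which 23 were measured and 12 had a group mean above the mark. In CCR7+Il12b- against immature cells 3 rose and 1 fell (median 0.07, all genes 0.06), where 9.10% of all genes rose and 14.5% fell. In CCR7+Il12b+ cells 6 rose and 3 fell (median 0.16, all genes 0.09), where 14.1% of all genes rose and 17.9% fell. Cd1d2 rose by 1.57 ± 0.20 (SE; limma adjusted p = 0.000237) and 2.03 ± 0.23 (3.87e-05). Its arrays stood at 6.75, 6.29 and 6.38 in immature, 8.0, 7.89 and 8.25 in CCR7+Il12b-, and 8.92 and 8.09 in CCR7+Il12b+ cells. Cd1d2 is a close copy of Cd1d1, and as in Cd1d1, CCR7+Il12b+ replicate 1 was above replicate 2. The rows of these copies may read each other's transcripts, which was not tested.

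Procr, the endothelial protein C receptor with a CD1-like fold, was highest in CCR7+Il12b- cells, with a rise of 0.90 ± 0.17 (SE) from immature cells and a fall of 0.82 ± 0.19 from there to CCR7+Il12b+ cells. H2-Q4, a Q-region gene, rose by 0.73 and 1.43, and H2-Q5 rose by 1.17 in CCR7+Il12b+ cells. H2-M5, an M-region gene, fell by 0.63 in CCR7+Il12b- cells and differed from immature cells by -0.98 in CCR7+Il12b+ cells, also a call. Hfe, the class I-like regulator of iron uptake, fell by 1.38 ± 0.17 from immature to CCR7+Il12b+ cells and by 0.94 ± 0.17 between the CCR7+ fractions. H2-Bl rose by 0.58 between the CCR7+ fractions. H2-Q and H2-Bl genes have close relatives, so their signal may be shared. The calls of H2-Bl and Procr between the CCR7+ fractions ended without CCR7+Il12b- replicate 1 or 2 (limma adjusted p = 0.05 to 0.0889), both in a fit on those fractions alone (0.0604 and 0.0674), that of H2-Bl (0.125) and Hfe (0.0677) without CCR7+Il12b+ replicate 1, and that of Procr without CCR7+Il12b+ replicate 2 (0.19).

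Genes listed for lipid loading of CD1d and its traffic to lysosomes, general lysosomal genes among them, moved in both directions while Cd1d1 rose. Of 20 listed genes 18 were measured. In CCR7+Il12b- against immature cells 3 rose and 4 fell (median -0.18, all genes 0.06), where 9.10% of all genes rose and 14.5% fell. In CCR7+Il12b+ cells 4 rose and 6 fell (median -0.09, all genes 0.09), where 14.1% of all genes rose and 17.9% fell. Lamp1, a lysosomal membrane protein, rose by 1.62 ± 0.10 (SE; limma adjusted p = 1.39e-06) and 2.15 ± 0.11 (2.11e-07). Gm2a, the GM2 activator that lifts lipids from membranes, fell by 0.88 ± 0.15 and 2.29 ± 0.17. Ppt1, a lysosomal thioesterase, fell by 2.80 ± 0.16 in CCR7+Il12b+ cells, and Ap1m1, an adaptor subunit, by 0.86. Gla, the lysosomal alpha-galactosidase, rose by 0.54 and Ap3s1, a subunit of the AP-3 adaptor, fell by 0.55 in CCR7+Il12b- cells. In CCR7+Il12b+ cells Gla differed from immature cells by 0.62, and the 3 rows of Ap3s1 by -0.47 to -0.32. For CCR7+Il12b- cells the call of Gla ended without replicate 2 of that fraction (limma adjusted p = 0.0574). That of Ap3s1 ended without replicate 3 of that fraction (0.0654, a difference of -0.44) or without immature replicate 2 (0.065) or 3 (0.0829).

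In CCR7+Il12b+ against CCR7+Il12b- cells 1 gene of that list rose and 3 fell, where 2.61% of all genes rose and 4.47% fell. Ppt1 fell by 2.28 ± 0.16 (SE; limma adjusted p = 9.37e-05), Gm2a by 1.41 ± 0.17 (0.000826) and Psap, the precursor of the saposins that load CD1d, by 0.55 ± 0.11 (0.014), while Lamp1 rose by 0.52 ± 0.11 (0.0195). The calls of Psap and Lamp1 ended without CCR7+Il12b- replicate 2 or either CCR7+Il12b+ replicate (adjusted p = 0.0584 to 0.0787) and in a fit on those fractions alone (0.0544 and 0.0572), and that of Lamp1 also with a replicate block (0.0568). In CCR7+Il12b- against immature cells the 7 calls of the list became 3 without immature replicate 2 or 3 and 4 without CCR7+Il12b- replicate 3.

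Signals to natural killer T, mucosal-associated invariant T and NK cells were a list of 11 genes, all measured. In CCR7+Il12b- against immature cells 5 rose and 2 fell (median 0.08, all genes 0.06), where 9.10% of all genes rose and 14.5% fell. In CCR7+Il12b+ cells 5 rose and 4 fell (median 0.12, all genes 0.09), where 14.1% of all genes rose and 17.9% fell. Il12b rose by 3.78 ± 0.11 (SE; limma adjusted p = 8.3e-09) in CCR7+Il12b- cells, where both fractions compared were sorted as reporter-negative. In CCR7+Il12b+ cells, sorted on the Il12b reporter, it was 5.26 above immature cells, a direction that the sort fixed. Cxcl16, ligand of the receptor CXCR6 that natural killer T cells carry, rose by 1.74 ± 0.11 (SE, limma adjusted p = 9.42e-07) in CCR7+Il12b- cells. In CCR7+Il12b+ cells Cxcl16 was 2.09 above immature cells. Cd40 rose by 2.06 and 2.33 in these fractions. Il15 was 1.41 above immature cells in CCR7+Il12b- cells and rose by 2.68 ± 0.20 in CCR7+Il12b+ cells. Il18 fell by 1.64 ± 0.13 in CCR7+Il12b- cells and at least 5.45-fold in CCR7+Il12b+ cells, whose mean of 4.73 was below the mark.

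Between the CCR7+ fractions 2 of these 11 genes rose and 4 fell, where 2.61% of all genes rose and 4.47% fell. Il12b, whose direction the sort fixed here too, was higher by 1.48, and Il15 rose by 1.27 ± 0.20 (SE; limma adjusted p = 0.00301). Il1b fell by 1.25 ± 0.21 (0.00558), and Il18 fell at least 1.75-fold.

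**Figure D4:**
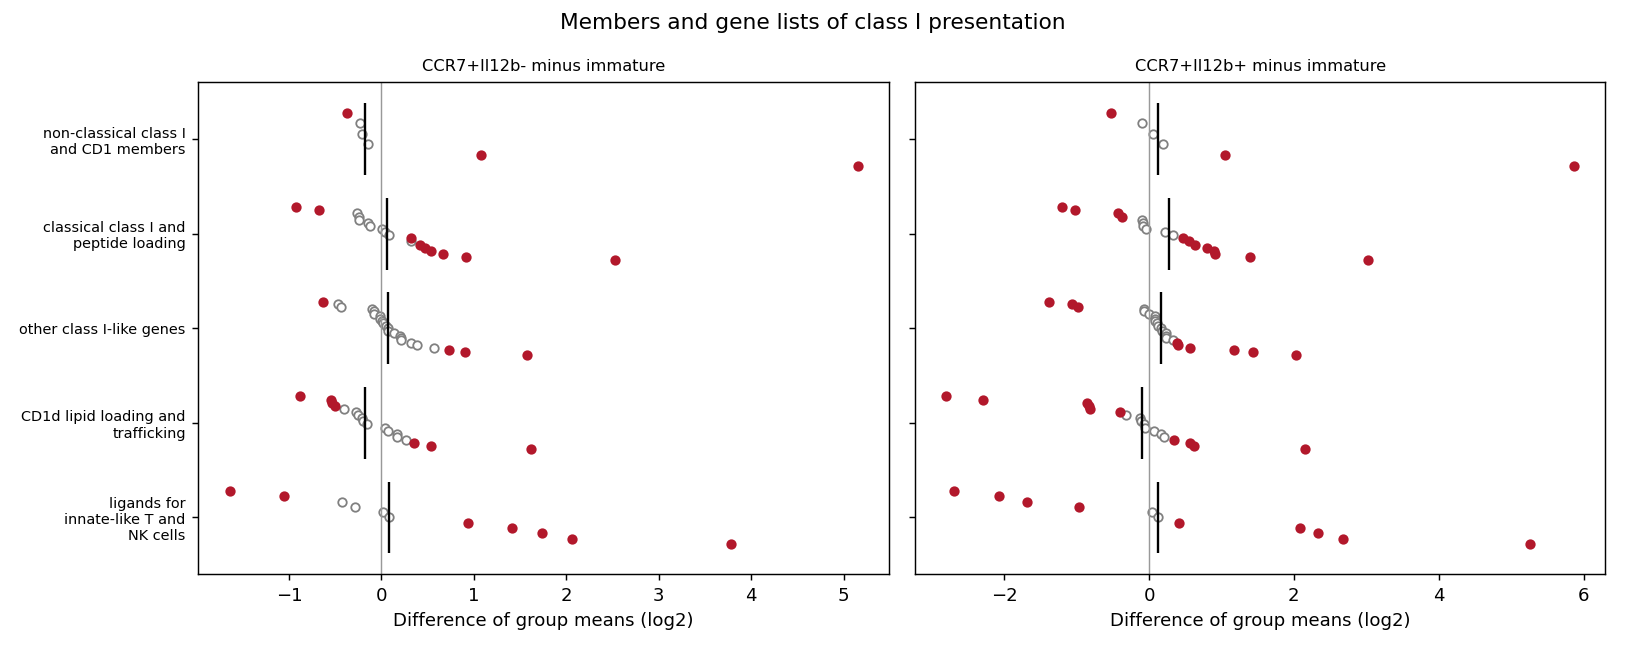
Difference of group means (log2) from immature cells for each measured gene of the member set and of 4 lists, for CCR7+Il12b- (left) and CCR7+Il12b+ cells (right); red points were called, open points were not, and black bars are medians. The members' medians lie at -0.18 and 0.12, with H2-M2 and Cd1d1 as the points to the right.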

How the data were processed

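The authors deposited log2 expression values, 1 per array and probe set; the submitters' processing notes name RMA and the oligo package. Versions, options and genome build: not given in the sources used here. Since RMA equalises the distributions of the arrays' probes, total RNA per cell cannot be read from the values. The medians of the deposited values still differed between arrays, from 5.25 to 5.46. Per the labels' protocols 3 or 20 ng of RNA was amplified; the input of each sample is not stated, and its part was not tested. Exactly 1 gene symbol was given for 21789 of 35556 rows. Each gene was represented by its row of highest mean, without a filter on low values. A single fit in limma 3.58.1 (R 4.3.3), by lmFit and eBayes with 3 group means over 8 arrays and two-sided tests, was checked on simulated data. Separate mice per replicate are not stated, so p-values cover the spread between these samples, possibly technical, and few arrays limit the precision.

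Members, lists and the naming rule (up to 4 called genes per list and comparison with the largest change, and 3 genes most correlated with each member) were chosen with earlier results of these data known. Calls were repeated with other normalizations, a filter, other fits, a replicate block and single replicates left out. Same-numbered replicates did not consistently deviate together (correlations -0.17 to 0.22). Deviations from means of so few arrays depend on each other, so this check cannot decide whether the numbers pair samples.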

Additional observations from a re-analysis of the deposited data

How the results depend on the processing

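The rises of H2-M2 and Cd1d1 from immature cells kept their direction and their call under every alternative run. Between the CCR7+ fractions, calls depended on the settings. There the 2 called members became 1 with median centring, with only those groups fitted and with a replicate block, and 0 to 2 when single replicates were left out, where calls over all genes numbered 712 to 1771. In the same comparison the 1 call of classical class I and peptide loading became 0 with median centring, with only those groups fitted, with array weights, with an intensity trend and with a replicate block, 2 after quantile or loess normalization, and 0 to 2 with replicates left out. The 3 calls of other class I-like genes became 1 with only those groups fitted and 1 to 5 with replicates left out. The 4 calls of CD1d lipid loading and trafficking became 2 with only those groups fitted and 2 to 4 with replicates left out. For CCR7+Il12b- against immature cells, the 4 calls of other class I-like genes became 8 with array weights, and the 7 calls of the lipid loading list became 3 to 7 with replicates left out.

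Directions turned for uncalled differences alone. Mr1 in CCR7+Il12b+ against immature cells was -0.09 after centring, -0.11 after quantile and -0.12 after loess normalization, and H2-M3 there was 0.06 after loess. Between the CCR7+ fractions, Cd1d1 was 0.00 after loess and -0.38 to 0.31 with replicates left out, and H2-M3 was -0.01 to 0.25 with replicates left out. Other causes of these changes were not tested. Median centring moved the median change of all genes from 0.06 to -0.04 and from 0.09 to -0.05 in the comparisons with immature cells. Whether replicate numbers pair the samples is not stated in the labels. The replicate block ended the calls of H2-T10, B2m, Tapbpl and Lamp1 given above while 2, 3 and 1 members were called. Where a CCR7+Il12b+ replicate is left out, the lone array is assumed to vary like the other groups.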
